A study of Mus musculus with 11 samples.

Results

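Collagen genes encode the chains of the triple-helical proteins of the extracellular matrix. They were taken as every mouse protein-coding gene whose symbol is Col, a number, a and a number (Col1a1, Col4a2 and so on), which gave 44 genes of 21631 protein-coding genes on chromosomes 1 to 19 and X. The study profiled 2 tumour-derived mouse cell lines, M00002 and M00001, that carry an HA-tagged fusion protein (CRfus1 in the labels), in work on the ZFTA-RELA fusion of supratentorial ependymoma, a brain tumour. The method was CUT&RUN, in which an antibody in permeabilised cells brings a nuclease to its target and the DNA cut out around it is sequenced. Line M00002 was profiled for HA, for H3K27ac with each of 2 antibodies (ac4729 and ac647) and for p65, with IgG as its control. Line M00001, from another mouse, was profiled for HA, for Cbp, for p300 and for Rpb1 S2 and Rpb1 S5, with IgG as its control. The titles of its Cbp, p300 and Rpb1 libraries carry a code that those of its HA and IgG libraries lack, and the labels do not explain it, so whether the libraries of M00001 were made together is not known. Both lines were grown untreated in neural basal medium with B27, N2, bFGF and rhEGF on dishes coated with Matrigel, a basement membrane extract. Each of the 11 libraries is the only one of its kind, and neither line has a fusion-free counterpart here, so differences between lists have no replicate check and no p-value is given.

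HA marks the tagged fusion. H3K27ac is the histone acetylation of active promoters and enhancers, and Cbp and p300 are related enzymes that place it. p65, the protein of Rela, is the NF-kappaB subunit that forms the RELA side of the fusion. The labels do not say whether the p65 antibody reads the fusion, native p65 or both. Rpb1 is the largest subunit of RNA polymerase II, and S2 and S5 name the phosphorylated serines of its tail: S5 is typical of polymerase near starts and S2 of polymerase in gene bodies.

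Collagen chains are hydroxylated and folded into triple helices in the endoplasmic reticulum, secreted, trimmed by proteases and cross-linked. Fibrillar collagens such as types I, II, III and V build the fibrils of connective tissue, and fibril-associated collagens coat them. In the brain, collagen lies mainly in the basement membranes of vessels and of the surface, where type IV forms the network and types XV and XVIII are attached to it. The transmembrane collagens sit in the cell membrane and can be shed from it. Symbols with the same number are chains of the same collagen type.

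The 4 promoters printed here are those in which an HA or p65 peak of M00002 covered part of the promoter, so that the letters under the peak can be read. Each run holds 250 bases before and 50 bases after the start, 300 in all, from RefSeq on GRCm38.p6, the assembly behind mm10, read along the gene's strand, and capitals mark the bases inside the peak. Col5a1, a chain that limits the width of type I fibrils, is shown from chr2:27886175-27886474 on the plus strand. Col4a2 and Col4a1, the 2 chains of the common type IV network, are transcribed away from each other and are shown from chr8:11312555-11312854 on the plus strand and chr8:11312777-11313076 on the minus strand. Col13a1, a transmembrane collagen of the nerve-muscle junction, is shown from chr10:61979059-61979358 on the minus strand. Capitals mark an HA peak in Col5a1, Col4a2 and Col13a1 and a p65 peak in Col4a1.
Col5a1: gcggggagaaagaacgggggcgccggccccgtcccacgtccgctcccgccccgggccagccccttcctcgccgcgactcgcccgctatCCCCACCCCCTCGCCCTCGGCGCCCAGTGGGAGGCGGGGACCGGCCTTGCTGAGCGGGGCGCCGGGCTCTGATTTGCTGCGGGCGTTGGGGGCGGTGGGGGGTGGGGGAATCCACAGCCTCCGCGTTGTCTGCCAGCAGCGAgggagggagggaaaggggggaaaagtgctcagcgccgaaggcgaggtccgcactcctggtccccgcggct
Col4a2: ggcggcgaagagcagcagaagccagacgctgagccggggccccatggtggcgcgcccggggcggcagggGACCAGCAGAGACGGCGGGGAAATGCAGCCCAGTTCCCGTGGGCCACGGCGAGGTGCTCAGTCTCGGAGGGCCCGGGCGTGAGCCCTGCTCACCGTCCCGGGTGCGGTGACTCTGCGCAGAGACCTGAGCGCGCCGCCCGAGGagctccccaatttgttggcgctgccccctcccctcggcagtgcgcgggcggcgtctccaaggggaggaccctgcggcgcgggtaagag
Col4a1: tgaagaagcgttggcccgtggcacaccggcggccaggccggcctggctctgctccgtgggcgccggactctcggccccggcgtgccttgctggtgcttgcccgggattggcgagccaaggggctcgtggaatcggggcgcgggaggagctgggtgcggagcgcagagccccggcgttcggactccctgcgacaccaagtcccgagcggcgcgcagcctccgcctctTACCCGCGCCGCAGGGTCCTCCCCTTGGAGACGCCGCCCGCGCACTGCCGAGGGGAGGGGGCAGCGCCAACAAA
Col13a1: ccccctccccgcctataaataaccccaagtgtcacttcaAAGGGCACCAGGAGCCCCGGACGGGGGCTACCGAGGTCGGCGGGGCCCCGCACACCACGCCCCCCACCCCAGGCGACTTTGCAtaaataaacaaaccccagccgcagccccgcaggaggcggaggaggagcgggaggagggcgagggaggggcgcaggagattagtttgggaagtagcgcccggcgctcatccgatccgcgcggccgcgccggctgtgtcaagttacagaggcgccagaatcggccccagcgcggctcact

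The HA peak in the Col5a1 promoter had a fold enrichment of 7.24 over background and a −log10 q of 8.12. The one in the Col4a2 promoter had a fold of 6.04 and a −log10 q of 5.20, and the one in the Col13a1 promoter a fold of 4.61 and a −log10 q of 2.66. Fold and q are the authors' values for each peak, and they rank peaks within a list but are not compared between libraries. The starts of Col4a1 and Col4a2 lie 21 bp apart, and their printed promoters share 78 bases. The p65 peak in this pair covers both starts, with a fold of 3.61 and a −log10 q of 1.04, so it is a weak call. An H3K27ac peak of antibody ac4729 (chr8:11312102-11313568) spanned both starts and was the widest H3K27ac peak at an end of any collagen gene, at 1467 bp. A Rpb1 S5 peak of M00001 that overlapped it had a fold of 3.74 and a −log10 q of 1.54.

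Letters were searched on both strands in all 21045 promoters of the RefSeq table, of which 38 belong to 35 of the 44 collagen genes. The 9 collagen genes without an entry are Col1a1, Col2a1, Col4a3, Col5a2, Col9a3, Col12a1, Col14a1, Col22a1 and Col26a1. GGGCGG, the core of the GC box read by Sp factors, was in 23 of 38 collagen promoters, 60.5%, and in 46.7% of all promoters. It stood once inside the capitals of the Col5a1, Col4a2 and Col4a1 promoters and was not in the Col13a1 promoter. Among all promoters it was in 77.4% of those with an HA peak of M00002 and in 40.3% of those without. Motif shares were not adjusted for GC content, whose median was 59.8% in collagen promoters and 56.7% in all promoters. The NF-kappaB consensus was in 4 collagen promoters, those of Col27a1, Col6a4, Col9a1 and Col9a2, 10.5%, and in 4.86% of all promoters. None of the 4 printed promoters held it. TGANTCA, the AP-1 consensus, was in the Col6a1 promoter, 2.63% of the collagen promoters, and in 7.04% of all promoters. Matches of the 3 motifs may overlap each other, and a match is a run of letters, not a binding site.

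As a class, collagen genes held a peak about as often as other genes of their length. They are long, with a median of 114410 bp and a range of 7105 to 419527 bp, against a median of 17290 bp for the other 21587 protein-coding genes. Shares were therefore set beside those of other genes of similar length (the shorter of the pair at least 0.8 times the longer), counting a peak in the gene or within 5 kb of its ends. HA of M00002 was found at 31 of 44 collagen genes, 70.5% (95% exact interval 54.8 to 83.2%), against 69.2% of other genes of similar length and 50.1% of all other genes. H3K27ac of M00002 was found at 32 collagen genes with antibody ac4729, 72.7%, against 68.5% of other genes of similar length and 50.8% of all other genes. With antibody ac647 it was found at 16 collagen genes, 36.4%, against 45.03% and 29.2%. p65 of M00002 was found at 23 collagen genes, 52.3%, against 47.8% of other genes of similar length and 33.5% of all other genes. IgG of M00002 was found at 8 collagen genes, 18.2%, against 23.6% and 11.2%. The shares exceeded those of all other genes in each list of M00002, IgG included, and lay close to those of genes of similar length.

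In M00001, HA was found at 15 collagen genes, 34.1% (20.5 to 49.9%), against 33.4% of other genes of similar length and 22.8% of all other genes. Cbp was found at 11 collagen genes, 25%, against 23.6% of other genes of similar length and 13.1% of all other genes, and p300 at 10, 22.7%, against 26.1% and 15.8%. The Cbp calls were weak: with a −log10 q of at least 2 they were at 0 of 44 collagen genes, against 7.74% of other genes of similar length, a value inside the interval. Rpb1 S2 was found at 24 collagen genes, 54.5% (38.8 to 69.6%), against 67.6% of other genes of similar length and 56.3% of all other genes. Rpb1 S5 was found at 18 collagen genes, 40.9%, against 44.5% and 33.9%. IgG of M00001 was found at 3 collagen genes, 6.82%, against 6.87% and 3.49%. In all 11 lists the value for genes of similar length lay inside the interval of the collagen genes. At stricter thresholds it did not for some settings of p65 and Rpb1 S2. With a −log10 q of at least 5, p65 was at 17 collagen genes, 38.6%, against 23.3% of other genes of similar length, and Rpb1 S2 at 12, 27.3%, against 48.9%. Among the 2000 strongest p65 peaks the shares were 20.5% of collagen genes and 10.6% of other genes of similar length, and there the value for other genes lay inside the interval. None of the 2000 strongest Rpb1 S2 peaks lay at a collagen gene, whereas 13.0% of other genes of similar length held such a peak. The intervals cover counting over genes only, and neighbouring genes are not independent.

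**Figure D1:**
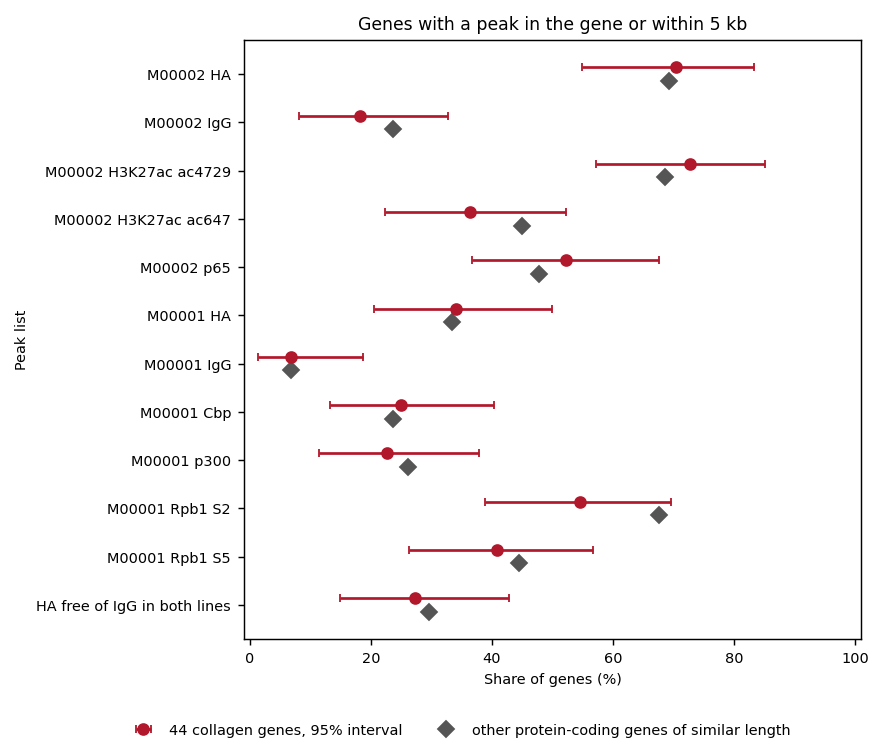
Share of genes (%) with at least 1 peak in the gene or within 5 kb, in each of the 11 lists and, at the bottom, with IgG-free HA in both lines. Red points are the 44 collagen genes with their exact 95% interval and grey diamonds are other protein-coding genes of similar length, and every diamond lies inside the red interval.

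Peaks were concentrated at a few collagen genes. HA of M00002 had a mean of 2.91 peaks per collagen gene, against 1.99 for other genes of similar length, while the median collagen gene had 1 peak. The 5 richest genes held 57 of these peaks, 44.5%, the lowest such share of the 11 lists. In IgG of M00002 the 5 richest held 7 of 10 peaks. p65 had a mean of 1.52 peaks per collagen gene, against 1.03 for other genes of similar length. Rpb1 S2 of M00001 had a mean of 1.64 peaks per collagen gene, against 1.81, and its 5 richest genes held 61.1% of them. The gene with most peaks in HA of M00002, in HA of M00001 and in Rpb1 S2 was Col23a1, with 14, 6 and 16 peaks. Col23a1 is 294247 bp long. Per 100 kb of gene and flanks it had 4.60 HA peaks of M00002, fewer than many shorter collagen genes, among them Col7a1 with 9.69, Col5a3 with 9.08 and Col18a1 with 8.85. How far peaks were concentrated among other genes of similar length was not computed.

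**Figure D2:**
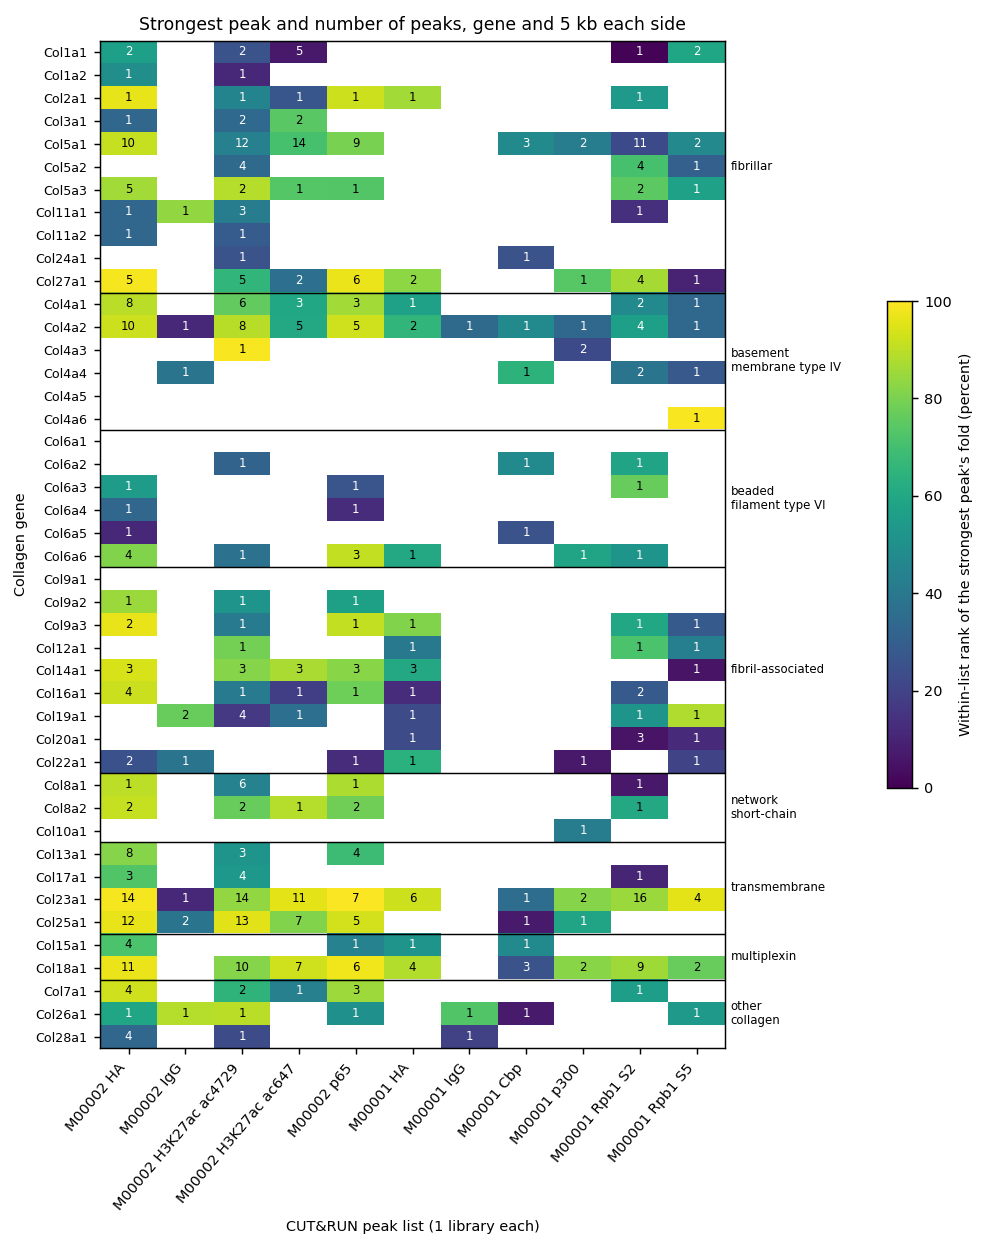
Strongest peak and number of peaks at each of the 44 collagen genes (rows, grouped by structural family) in each of the 11 lists (columns). Colour is the rank of the gene's strongest fold within its list, in percent, the printed number is its count of peaks and white means no peak. Col4a2 is filled in all 11 lists, Col23a1 in 10, Col18a1 in 9 and Col5a1 in 8, and Col9a1, Col6a1 and Col4a5 are empty rows.

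HA peaks that did not overlap IgG of their own line were found in both lines at 12 collagen genes, 27.3% (15.0 to 42.8%), against 29.6% of other genes of similar length and 19.9% of all other genes. These were Col2a1 and Col27a1 of the fibrillar collagens, Col4a1 and Col4a2 of type IV, Col6a6 of type VI, Col9a3, Col14a1, Col16a1 and Col22a1 of the fibril-associated collagens, the transmembrane Col23a1 and both multiplexins, Col15a1 and Col18a1. With a −log10 q of at least 2 in both lines 10 of them remained, and with at least 5 the 5 that remained were Col2a1, Col9a3, Col18a1, Col23a1 and Col27a1. A further 19 collagen genes had HA in M00002 only, 3 in M00001 only (Col12a1, Col19a1 and Col20a1) and 10 in neither. The M00001-only calls were weak, with a −log10 q of 1.52 at Col12a1 and of 0.750 at Col19a1 and at Col20a1. The same split was not computed for other genes, of which 50.1% had HA in M00002 and 22.8% in M00001. The M00002 list holds 30680 HA peaks and the M00001 list 9365, so absence from the shorter list is not a difference between the lines. The HA and p65 lists of M00002 also carry a 120 bp mark in their names that the labels do not explain, and for HA it cannot be told apart from the line.

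At 11 of the 12 genes, all but Col22a1, the lines shared the site and not only the gene. Of the 27 HA peaks of M00001 at collagen genes, 19 overlapped an HA peak of M00002, 70.4% (49.8 to 86.2%), against 64.1% of HA peaks of M00001 at other genes and 55.4% of all its HA peaks. At Col22a1, a collagen of tissue junctions, the M00001 peak lay beyond the higher-coordinate end of the gene (chr15:72151686-72151868, fold 5.28), whereas the M00002 peaks lay inside the gene with folds of 2.99 and 3.70.

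Col23a1 (chr11:51289679-51583925) carried the strongest HA signal by rank over both lines. Its strongest HA peak in M00002, chr11:51526662-51526935, had a fold of 21.0 and a −log10 q of 46.0, and lay 236872 bp downstream of the start. An M00001 HA peak inside it (chr11:51526733-51526935) had a fold of 7.96 and a −log10 q of 11.3. p65 had its strongest collagen peak there, chr11:51526721-51526869, with a fold of 22.6. The site was also called in both H3K27ac lists, in p300 and in Rpb1 S2. A further site 129010 bp from the start held the strongest HA peak of M00001 at a collagen gene, chr11:51418628-51419137, with a fold of 9.99, over an M00002 HA peak of fold 19.6. This site was called in H3K27ac with both antibodies, in p65, in Cbp and in Rpb1 S2, and its ac647 peak had a fold of 8.35. The Cbp call was weak, with a −log10 q of 0.656. Of the 6 HA peaks of M00001 in Col23a1, 5 overlapped an HA peak of M00002. No IgG peak overlapped an HA peak in this gene, although 1 IgG peak of M00002 lay within its window.

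Col18a1 (chr10:77052178-77166530), whose chain releases the fragment endostatin, held 11 HA peaks of M00002 and 4 of M00001, and all 4 overlapped M00002 peaks. The strongest in M00001, chr10:77089527-77089770, had a fold of 8.66 and a −log10 q of 11.6, over an M00002 peak (chr10:77089498-77089658) with a fold of 14.2. A site at chr10:77116726-77117215 had an M00002 fold of 8.72 and an M00001 fold of 5.17, and lay under the strongest ac647 peak of the gene, which had a fold of 7.23 and a −log10 q of 28.4. The HA peak of highest fold in its window, 17.2 in M00002 at chr10:77047568-77047755, lies outside the gene and within 5 kb of Slc19a1, the reduced folate carrier, so it cannot be assigned to Col18a1 alone. Its family partner Col15a1 held weaker sites, with a strongest HA fold of 6.73 in M00002 and a single M00001 peak of fold 4.48 on an M00002 peak of fold 5.16.

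**Figure D3:**
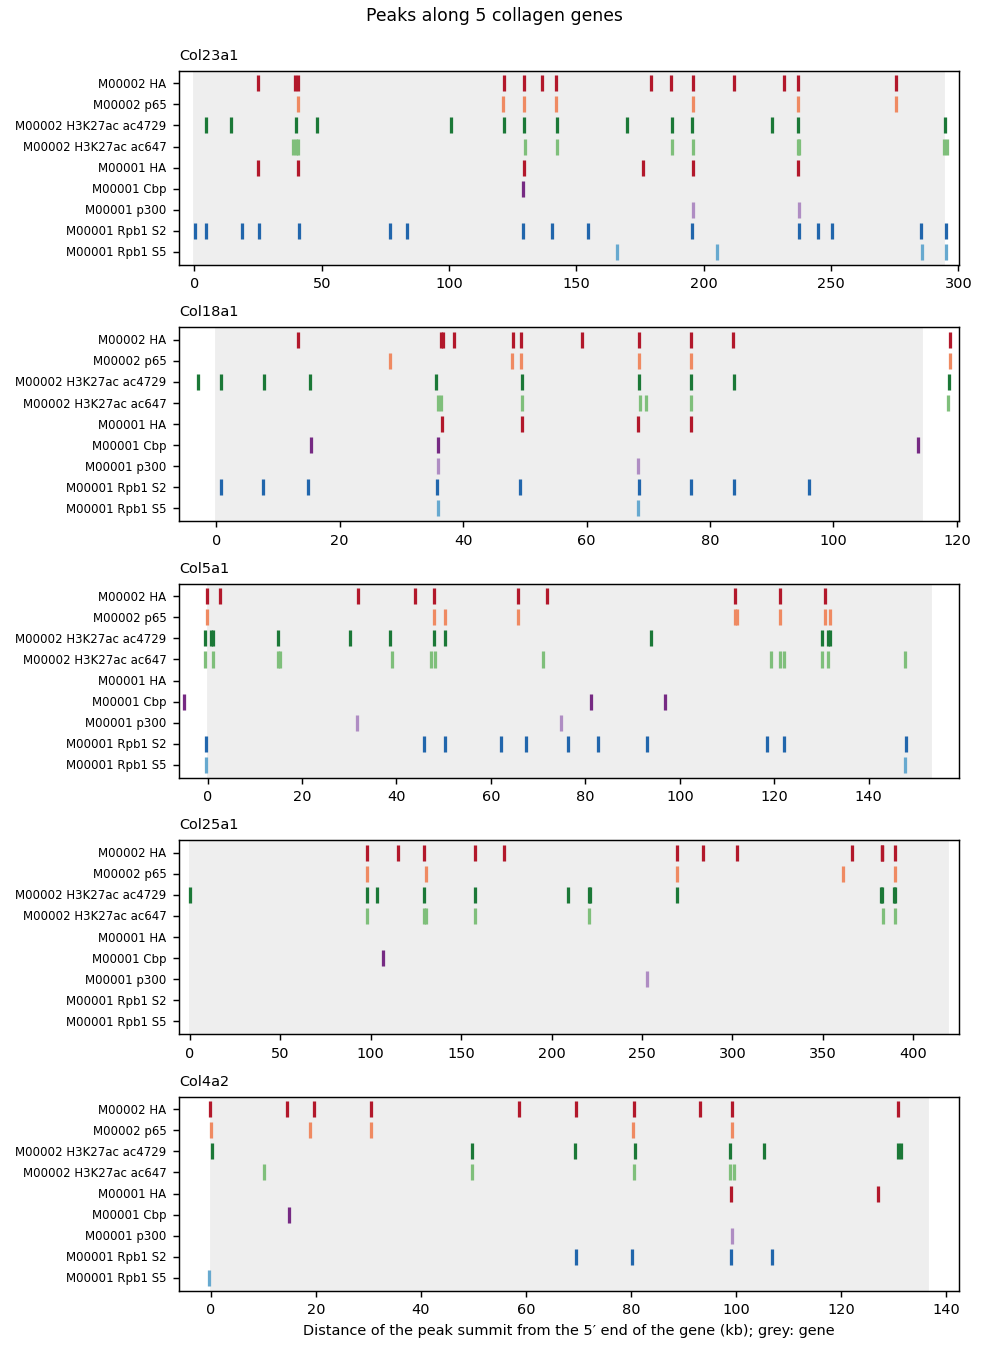
Peak summits along Col23a1, Col18a1, Col5a1, Col25a1 and Col4a2, by distance from the gene's 5′ end (kb), with a row per list and the gene in grey. HA peaks of M00001 stand under HA peaks of M00002 in Col23a1, Col18a1 and Col4a2, while Col5a1 and Col25a1 have 10 and 12 HA peaks in M00002 and 0 in M00001.

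Among the fibrillar collagens, 9 of 11 had HA in M00002 and 2 in M00001, against 50.1% and 22.8% of all other genes. Shares of other genes of similar length were not computed for any family, so family counts are not adjusted for length. Col27a1, a collagen of cartilage, had its strongest HA peak 1126 bp from the start (chr4:63216400-63216720), with a fold of 20.6 and a −log10 q of 56.5 in M00002. The M00001 peak inside it, chr4:63216411-63216645, had a fold of 7.46 and a −log10 q of 9.23, and p65 had a fold of 16.3. Col2a1, the main cartilage collagen, had a single HA peak in each line at the same place, with a fold of 16.5 in M00002 (chr15:97990260-97990442) and 8.02 in M00001 (chr15:97990264-97990442). p65 with a fold of 11.9 and both H3K27ac lists were called over it, and the only Rpb1 S2 peak of the gene did not overlap it.

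Col5a1 was peak-rich in M00002 and had no HA peak in M00001. It held 10 HA peaks, 9 p65 peaks, 12 ac4729 peaks and 14 ac647 peaks in M00002, and its strongest HA peak (chr2:27934280-27934456) had a fold of 12.3 and a −log10 q of 25.3. In M00001 it held 11 Rpb1 S2 peaks, of folds 2.06 to 3.11, from the start to the end of the gene, and 2 of Rpb1 S5. Polymerase was therefore called along this gene in the line without an HA call. The genes of the most abundant fibrils had weaker HA calls: Col1a1 had a strongest M00002 HA fold of 5.13, Col1a2 of 4.49 and Col3a1 of 3.74. None of these had HA in M00001, and only Col1a1 had Rpb1 peaks there, with S2 of fold 2.14 and S5 of folds 4.25 and 4.38 near its lower-coordinate end.

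Type IV was split by gene pair. Col4a2 held 10 HA peaks of M00002 and was the only collagen gene with a peak in all 11 lists. Its strongest site, chr8:11411666-11412156, had an HA fold of 13.0 in M00002 and 5.47 in M00001, and p65, both H3K27ac lists, p300 and Rpb1 S2 were called over it. Another of its M00002 HA peaks, of fold 4.44, overlapped an IgG peak and was the only HA peak of M00002 at a collagen gene that did. Col4a1 held 8 HA peaks of M00002, and its strongest (chr8:11259847-11260082) had a fold of 11.5, with an M00001 peak of fold 4.84 over it. The pairs Col4a3 with Col4a4 and Col4a5 with Col4a6, chains of the kidney and other special basement membranes, had no HA peak in either line. Col4a4 had an IgG peak of M00002 that overlapped its Cbp peak and a Rpb1 S2 peak. Col4a3 had an ac4729 peak of fold 8.69 that lay outside the gene and within 5 kb of Mff, a mitochondrial fission gene. Col4a6 had a single peak in the 11 lists, a 180 bp Rpb1 S5 peak of fold 16.4 and −log10 q 37.0 at chrX:141276529-141276708, 197438 bp into the gene.

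The fibril-associated Col9a3 and Col14a1 each had a strong site. In Col9a3, a chain of the type IX collagen on cartilage fibrils, HA had a fold of 16.9 in M00002 (chr2:180600590-180601041) and 7.11 in M00001 (chr2:180600662-180600985), with p65, ac4729, Rpb1 S2 and Rpb1 S5 over it, and the site also lies within 5 kb of Ogfr. In Col14a1, HA had a fold of 13.9 in M00002 (chr15:55358462-55358616) and 4.97 in M00001, under H3K27ac peaks of both antibodies. Col16a1 had folds of up to 12.8 in M00002, but its shared site had a fold of 8.70 in M00002 and 3.30 in M00001, the lowest fold of the 19 shared M00001 peaks, with a −log10 q of 0.634. Col19a1 had its only HA call, of fold 3.48 in M00001, on an IgG peak of M00002 (chr1:24331310-24331704), which Rpb1 S2 and Rpb1 S5 peaks also overlapped. Col26a1, of the remaining collagens, had IgG peaks in both lines, with folds of 5.56 in M00002 and 4.13 in M00001.

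Type VI collagen, the beaded filament of many tissues, had HA in M00002 at 4 of 6 genes and in M00001 at Col6a6 alone, where the M00001 peak had a fold of 4.97 and overlapped an M00002 peak of fold 5.79. The 4 transmembrane genes all had HA in M00002, with 37 peaks together, and Col23a1 alone of them had HA in M00001. These genes are long, with a median of 217610 bp, and their count was not set beside genes of similar length. Col25a1, a neuronal transmembrane collagen, held 12 HA peaks of M00002, with a strongest fold of 16.7 (chr3:130278231-130278456), and 13 ac4729 peaks. It had no HA and no Rpb1 peak in M00001. Col13a1 held 8 HA peaks of M00002, and likewise had no HA and no Rpb1 peak in M00001. Neither HA nor a Rpb1 S5 peak was found at the 3 short-chain network genes in M00001. Col4a5, Col6a1 and Col9a1 had no peak in any list.

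Most peaks of collagen genes, in the HA lists as in every other list, lay inside the gene and far from the start. Of 127 different HA peaks of M00002, 93.7% overlapped the gene by at least 1 bp. By summit, 96 of the 116 whose gene has a known start lay more than 10 kb from it. The same share was not computed for HA peaks at other genes, and collagen genes are long. All 8 IgG peaks of M00002 at collagen genes with a known start also lay more than 10 kb from it. The HA peaks of M00002 at collagen genes carried p65 and H3K27ac about as often as HA peaks at other genes. p65 overlapped 39.4% of them (30.8 to 48.4%), against 37.5% of HA peaks at other genes and 33.7% of all HA peaks of M00002. H3K27ac of ac4729 overlapped 35.4%, against 41.6% at other genes, and that of ac647 23.6%, against 24.3%. IgG overlapped 0.787%, against 1.33% at other genes. Of the 27 HA peaks of M00001 at collagen genes, Rpb1 S2 overlapped 13, 48.1%, against 50.7% of its HA peaks at other genes and 43.2% of all its HA peaks. p300 overlapped 4, 14.8% (4.19 to 33.7%), against 21.4% at other genes, Rpb1 S5 also 4, against 32.8%, and Cbp 1, 3.70% (0.0937 to 18.97%), against 13.9%. The values at other genes lay inside the intervals for each of these marks.

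At the starts, polymerase was called at fewer collagen genes than at other genes of similar length. Rpb1 S2 had a peak within 1 kb of a start at 7 of the 35 collagen genes with a known start, 20.0% (8.44 to 36.9%), against 47.5% of other genes of similar length and 42.6% of all others. These 7 were Col5a1, Col6a2, Col7a1, Col16a1, Col18a1, Col20a1 and Col23a1, and the peak of Col7a1 lay outside the gene. Rpb1 S5 had one at 3, Col4a1, Col4a2 and Col5a1, 8.57% (1.80 to 23.1%), against 24.7% of other genes of similar length. Col4a1 and Col4a2 shared a single Rpb1 S5 peak, of fold 3.74. In both lists the value for other genes lay outside the interval. For Rpb1 S5 it lay inside the interval when only peaks with a −log10 q of at least 5 were counted, 0 of 35 genes against 7.64%, and within 1 kb of either end of the 44 genes, 13.6% against 21.0%. H3K27ac at starts was lower in value too, at 8 genes, 22.9%, against 38.9% with ac4729 and at 1 gene, 2.86%, against 14.6% with ac647, but there the value for other genes lay inside the interval. HA was at the start of 7 collagen genes in M00002, 20.0%, against 28.7%, and of Col27a1 alone in M00001, 2.86%, against 11.7%. Cbp and p300 were at none of the 35 starts, which allows a share of up to 10.0%, against 3.71% and 8.35% of other genes of similar length.

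**Figure D4:**
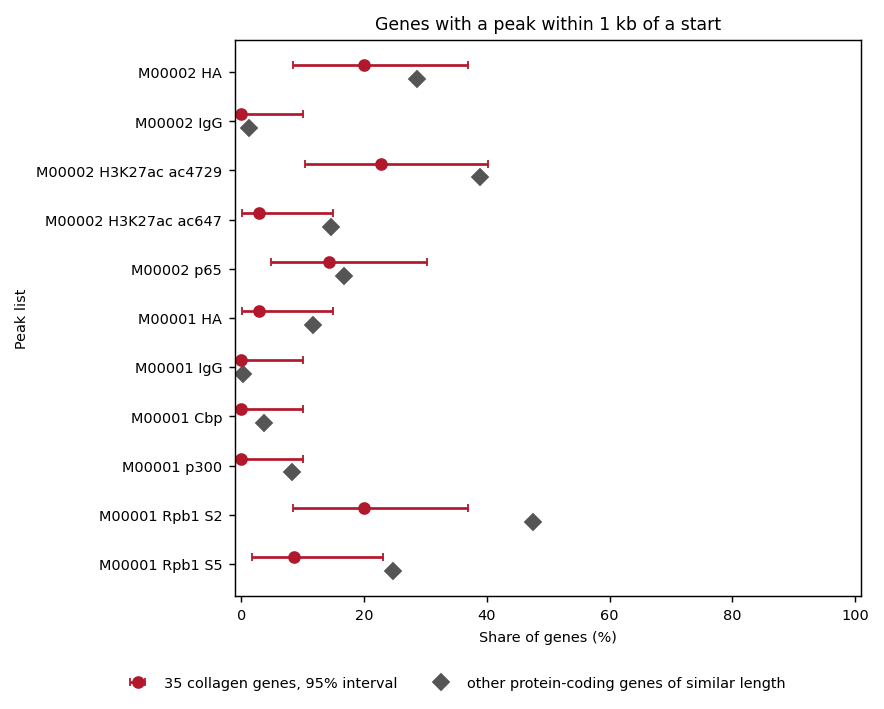
Share of genes (%) with a peak within 1 kb of a start, in each of the 11 lists. Red points are the 35 collagen genes with a known start and their exact 95% interval, grey diamonds are other protein-coding genes of similar length, and the diamond lies outside the interval for Rpb1 S2 (47.5%) and Rpb1 S5 (24.7%).

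The stretch of a gene covered by Rpb1 S2 peaks was small and uneven. The median collagen gene had 0.113% of its length under S2 peaks, against 0.351% for other genes of similar length, and 21 of 44 had none. The means lay closer, at 0.587% for collagen genes and 0.653% for the others. The highest shares were 3.60% in Col18a1, 2.57% in Col9a3, 2.39% in Col23a1, 2.02% in Col5a1 and 1.83% in Col1a1. Of these, Col18a1, Col9a3 and Col23a1 had HA in each line, whereas Col5a1 and Col1a1 had it in M00002 only.

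Genes that work on collagen held peaks of most targets, not of HA alone, at higher shares than genes of their length. The list held 66 genes for hydroxylation, folding, trimming, cross-linking, receptors and the surrounding matrix. HA free of IgG in both lines was found at 26 of 66, 39.4% (27.6 to 52.2%), against 24.1% of other genes of similar length and 19.8% of all other genes. p65 was at 62.1% of the 66, against 40.2% of genes of similar length, and H3K27ac at 78.8% with ac4729, against 61.0%, and at 59.1% with ac647, against 35.9%. In M00001, Rpb1 S2 was at 78.8%, against 65.5%, and Rpb1 S5 at 57.6%, against 39.8%. For p65, H3K27ac and Rpb1 the value for genes of similar length lay outside the interval. p300 was at 30.3% (19.59 to 42.9%), against 19.63%, and Cbp at 21.2% (12.1 to 33.0%), against 16.9%. For these 2 the value lay inside the interval. IgG was at 13.6% in M00002, against 15.2%, and at 6.06% in M00001, against 4.57%. By role, the genes with HA in both lines were 4 of the 5 cross-linking lysyl oxidases (Loxl1, Loxl2, Loxl3 and Loxl4, but not Lox), 5 of 8 genes of propeptide processing, 9 of 19 matrix and degradation genes, 4 of 10 folding and secretion genes, 3 of 13 hydroxylase genes and 1 of 11 receptors. Other genes of similar length held it at 21.1% for cross-linking, 29.0% for propeptide processing, 25.3% for matrix and degradation, 20.8% for folding and secretion, 22.0% for the hydroxylases and 25.5% for the receptors, and only the value for cross-linking lay outside the list's interval. P3h4, counted with the hydroxylases, and Fkbp10, counted with folding, are neighbours with the same strongest HA peak folds, 8.83 in M00002 and 5.90 in M00001. The difference between these genes and the collagen genes was not tested. The strongest HA peak of Loxl1 had a fold of 15.6 in M00002 and 11.9 in M00001. For Ddr1, a collagen-binding receptor kinase, these were 16.5 in M00002 and 12.2 in M00001. For Creb3l1, a transcription factor that acts on collagen genes and secretion, they were 17.2 in M00002 and 7.62 in M00001, and for the laminin gene Lama5 13.0 in M00002 and 8.56 in M00001. Lama1 had an HA fold of 7.48 in M00002 beside an IgG fold of 12.4 there and is not among the 26.

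**Figure D5:**
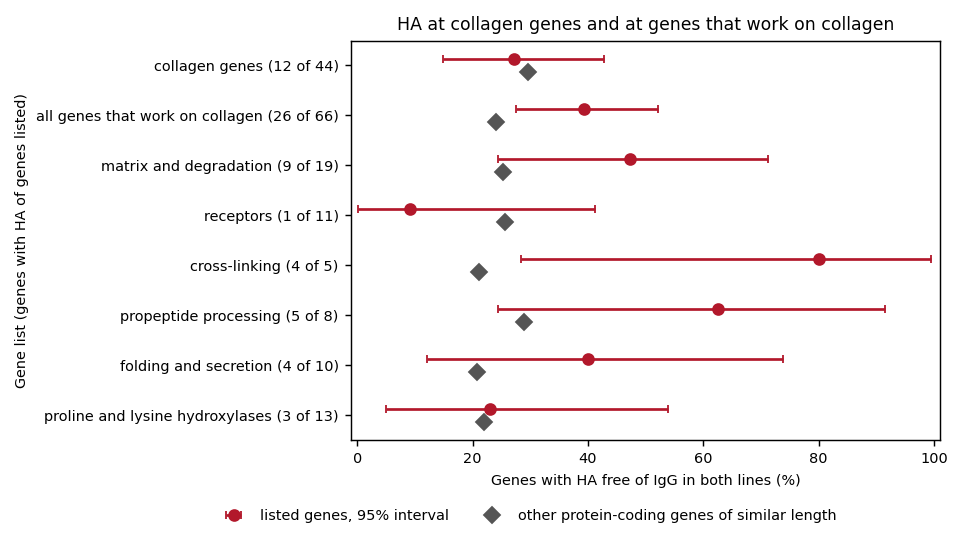
Share of genes (%) that hold HA without IgG in both lines, for the 44 collagen genes and for 66 genes that work on collagen, whole and by role (counts in brackets). Red points are the listed genes with their exact 95% interval and grey diamonds are other protein-coding genes of similar length; the interval excludes the diamond for the whole list of 66 and for cross-linking.

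Markers of cells that make much collagen were looked at because the lines could hold such cells. HA free of IgG in both lines was found at 0 of 8 fibroblast and meninges markers and 1 of 6 pericyte and smooth muscle markers (Pdgfrb). It was found at 3 of 6 endothelium markers (Cldn5, Flt1 and Pecam1) and 4 of 8 radial glia and ependymoma markers (Foxj1, Hes1, Sox9 and Vim). Other genes of similar length held it at 18.2, 21.9, 24.4 and 16.1% for these lists in that order. Rpb1 S2 peaks were found at 2 of 8, 3 of 6, 2 of 6 and 3 of 8 genes of the lists in the same order, against 56.8, 64.7, 61.7 and 52.3% of other genes of similar length. Each of these values lay inside the list's wide interval. In M00002 alone, HA was at 7 of 8 radial glia and ependymoma markers (47.3 to 99.7%), against 43.3% of other genes of similar length. H3K27ac was at 7 of 8 with ac4729, against 43.6%, and at 5 of 8 with ac647, against 22.7%. p65 was at 6 of 8, against 28.8%. In each of these M00002 lists the value for other genes lay outside the interval, whereas for the other marker lists it lay inside. IgG of M00002 had a peak at 4 of 6 endothelium markers, 66.7% (22.3 to 95.7%). Other genes of similar length held one at 18.2%, outside that interval, whereas for the other marker lists this value lay inside. At Flt1 the strongest IgG fold was 12.4 in M00002 and 7.44 in M00001. The strongest HA folds of Pecam1 were low, at 2.99 in M00002 and 2.98 in M00001. A peak near a gene is not its expression, so the cell makeup of the lines was not tested.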

How the data were processed

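The files used here are 11 peak lists on mm10, 1 per CUT&RUN library of the lines M00002 and M00001. Per the submitters' processing notes, reads were handled with Trim Galore, FastQC, Bowtie2 2.3.5.1, MACS2 and deepTools. Each deposited list gives, per peak, a score that is 10 times the −log10 p, the authors' fold enrichment (a ratio), and −log10 p and −log10 q. The smallest −log10 p was about 3 and peaks were not limited by q. The labels do not name the control used for calling, and read depth is unknown. The lists hold 1806 to 30680 peaks.

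A gene counted as holding a peak when at least 1 bp of it lay in the gene or within 5 kb of its ends. Gene positions and promoters came from RefSeq (GRCm38.p6). Other genes were of similar length if the shorter gene had at least 0.8 times the length of the longer (256 to 2681 genes each). Intervals are exact Clopper-Pearson. Distances in bp use summits, and starts use overlap. Python 3.11.15, pandas 2.3.3, NumPy 2.4.6, SciPy 1.17.1 and matplotlib 3.10.9 were used, and the counting was tested on simulated data. The members and lists were chosen with earlier results of these data known, and the comparison at starts was added after seeing the data. Genes were named by rule: HA in both lines, the 8 highest HA ranks, the 5 with peaks in most lists, the 3 with the widest H3K27ac at an end, the 5 most covered by Rpb1 S2, those with no peak and those with an IgG peak on another peak. Others named, among them Col25a1, Col13a1, Col4a3, Col4a6 and the type I and III genes, were chosen after their values were seen. Exons and introns were not analysed here.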

Additional observations from a re-analysis of the deposited data

How the results depend on the processing

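The share of collagen genes with a peak, minus that of other genes of similar length, was recomputed under other gene windows, peak thresholds, IgG filters and length classes. The difference ranged from 0.291 to 8.99 percentage points for HA of M00002, from −2.29 to 4.73 for HA of M00001, from 3.05 to 15.3 for p65 and from −21.6 to −0.281 for Rpb1 S2. In 125 of 130 alternatives the value for other genes lay inside the interval of the collagen genes, and the 5 exceptions were Rpb1 S2 in 4 and p65 in 1. At the starts, with alternatives chosen after seeing the data, it lay outside the interval in 4 of 4 alternatives for Rpb1 S2, in 2 of 4 for Rpb1 S5 and in 1 of 4 for H3K27ac with ac4729. The count of 12 collagen genes with HA in both lines was 20 with 25 kb on each side, 4 near either end only (5 kb), 5 where −log10 q reached 5, and likewise 5 from the 2000 strongest peaks per list. The other 8 alternatives stayed within 1.5 times of it. For genes that work on collagen, the difference in H3K27ac with ac647 was 23.2 points, and 6.51 points where −log10 q reached 5; the cause was not tested. Read depth is unknown, so an absent peak is only one not called. No paired analysis was possible because each line and target has a single library.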
